A study of Mus musculus with 56 samples.

Results

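The 9 genes described here are Elavl1, which encodes HuR, and 8 genes of other proteins that bind AU-rich elements or the poly(A) tail (Zfp36, Zfp36l1, Zfp36l2, Hnrnpd, Khsrp, Tia1, Tial1 and Pabpc1). They were chosen by name, and all 9 are among the 15539 genes of the deposited count table and passed the filter on low counts that left 14321 genes to test. RNA of gastrocnemius muscle was sequenced from 56 C57Bl/6 mice on chow 5015, 7 in each of 8 groups. The groups combined sex, genotype label (Controls, or HuR skeletal muscle knockout, written HuRm-/- here) and wheel (a locked wheel or a running wheel). Per the labels the wheels were given for 10 weeks, from 10 to 20 weeks of age, and the mice were 5 months old. The questions were whether Elavl1 itself follows the knockout label, and whether the other binding proteins shift with the label or with running.

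By the study's methods, all mice carry a floxed Elavl1 allele, the controls being floxed littermates, and HuRm-/- mice also carry Cre recombinase under the Mlc1f promoter, which is that of a fast myosin light chain of muscle fibres. Endothelial cells, leukocytes and fibroblasts of the muscle would keep the gene in such mice. The labels name a kit that reads the 3′ ends of transcripts, while the methods describe stranded total RNA libraries, and the counts do not settle which was used. If reads came from 3′ ends, a tag outside the deleted part would check nothing about the deletion. Total counts ran from 6639782 to 21633091 per mouse, with a median of 12380363. Replicates are separate mice, and the counts of each of the 168 pairs of mice within a group differed beyond counting error (3.55 to 49.8 as chi-square divided by its degrees of freedom). The 8 fast fibre markers summed to between 69200 and 99200 CPM. CPM of single genes are counts in each 1000000 of the normalised total. Summed levels of gene lists are counts in each 1000000 of the raw total, so they are not on the same scale. Fewer cells of a type and less RNA per cell cannot be told apart in such bulk samples.

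AU-rich elements are stretches of A and U in the 3′ UTR of short-lived mRNAs, among them those of growth factors, cytokines and early response genes. HuR is known for protecting such mRNAs from decay and for raising their translation. Tristetraprolin (Zfp36) and its relatives (Zfp36l1, Zfp36l2) and KSRP (Khsrp) instead recruit enzymes that remove the poly(A) tail and degrade the mRNA, while TIA-1 and TIAR (Tia1, Tial1) hold back translation. AUF1 (Hnrnpd) can do either, and PABPC1 (Pabpc1) covers the poly(A) tail that protects the mRNA. In muscle, HuR has been studied mostly for binding the mRNAs of differentiation factors such as Myod1 and Myog.

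The 3′ UTRs of the 9 genes themselves were searched for AU-rich letters. They were read on the transcript strand from the GENCODE M21 annotation (GRCm38), with the longest 3′ UTR of each gene. The core nonamer TTATTTATT, to which tristetraprolin and its relatives bind, was found in 4 of the 9 genes (Elavl1, Zfp36, Zfp36l1 and Zfp36l2) and in 8.22% of the 12864 tested genes with an annotated 3′ UTR. The sequences below show the first such stretch of each of the 4, with the nonamer or runs of overlapping nonamers in capitals and T written for U. The Elavl1 stretch is cut at 29 bases inside its run, so its last capitals belong to a nonamer that goes on past the cut. Elavl1 had 8 nonamers in a span of 55 bases near the end of a 3′ UTR of 4218 bases.

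Elavl1, chr8:4285788-4285816, minus strand: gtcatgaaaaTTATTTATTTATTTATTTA

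Zfp36, chr7:28376951-28376979, minus strand: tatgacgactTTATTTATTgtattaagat

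Zfp36l1, chr12:80108167-80108195, minus strand: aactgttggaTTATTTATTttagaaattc

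Zfp36l2, chr17:84184914-84184942, minus strand: actatttaacTTATTTATTatcttgtgaa

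Among genes with a 3′ UTR of like length (within 25%), the nonamer was held by 16.6% for Elavl1, 4.44% for Zfp36, 8.95% for Zfp36l1 and 8.78% for Zfp36l2. Hnrnpd, Khsrp, Tia1, Tial1 and Pabpc1 had no match. The shorter pentamer ATTTA, which is contained in the nonamer, was found in all 9 genes, from 1 match in Khsrp to 17 in Elavl1, and in 70.5% of the tested genes. A match is a description of the letters and not a measured binding site.

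Elavl1 (ENSMUSG00000040028; chromosome 8, 4285382 to 4325413, minus strand) overlaps Ccl25 on the other strand. Each mouse had between 342 and 1171 Elavl1 counts. Its level was not lower in mice labelled HuRm-/- (log2 fold change 0.13, standard error 0.058, 95% confidence interval 0.01 to 0.24, limma adjusted p = 0.15). The fitted level in the labelled mice was 109% of controls (101 to 119%), and 19 of the 28 labelled mice lay above the median of the controls of their own sex and wheel. As the Elavl1 counts do not follow the label, the mice are called labelled HuRm-/- throughout.

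In locked females, Elavl1 ran from 38.9 to 48.2 CPM in controls (median 44.5) and from 37.9 to 62.3 CPM in labelled mice (median 47.9). In running females it ran from 49.3 to 61.3 CPM in controls (median 51.5) and from 49.2 to 62.5 CPM in labelled mice (median 52.8). Locked labelled females spread more widely than their controls, with 3 above and 1 below every control, and running females overlapped over nearly all of their range. In locked males, controls ran from 42 to 61.9 CPM (median 54.0) and labelled mice from 45.3 to 58.6 CPM (median 50.5). In running males, controls ran from 27.8 to 60.9 CPM (median 54.4) and labelled mice from 53.2 to 69.8 CPM (median 61.3). The lowest Elavl1 levels of all 56 mice were therefore those of running control males 13 (27.8 CPM) and 10 (30.8 CPM), and the highest that of running labelled male 4.

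**Figure D1:**
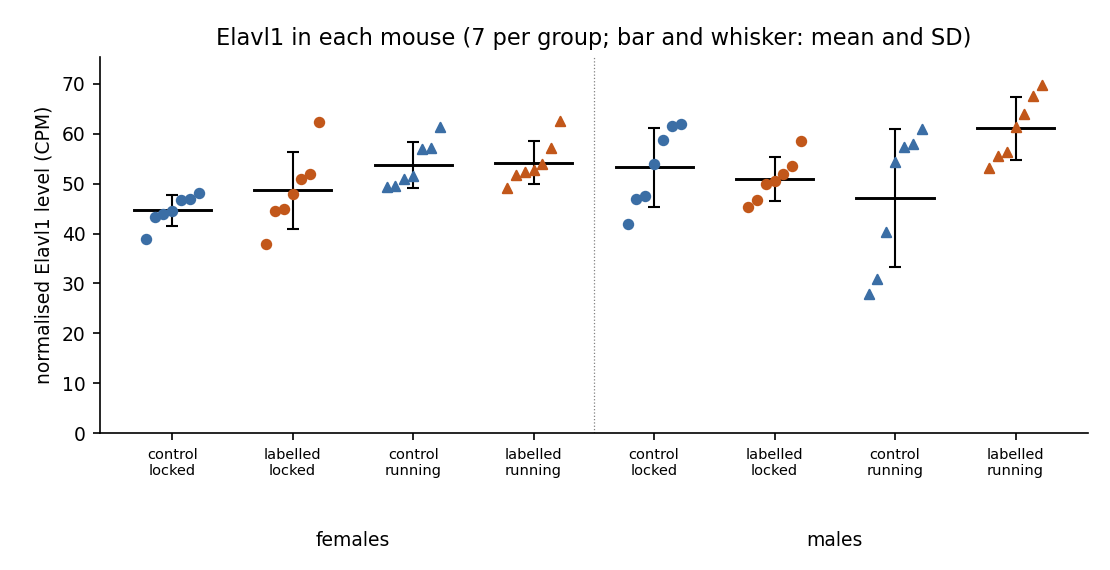
Normalised Elavl1 level of each mouse in CPM (y axis) in the 8 groups (x axis), with circles for locked and triangles for running wheels, blue for controls and orange for mice labelled HuRm-/-, and the mean and SD of 7 mice in black. The means of labelled mice are 61.1 against 47 CPM in running males and 51 against 53.2 CPM in locked males, and the 2 lowest values (27.8 and 30.8 CPM) belong to running male controls.

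Two-sided exact permutation tests of 7 against 7 mice, which cannot give a p below 0.00058, showed no difference past the threshold in Elavl1. The difference in mean log2 CPM was 0.11 in locked females (exact permutation p = 0.261, 0.522 adjusted over the 4 tests) and 0.01 in running females (exact permutation p = 0.854, adjusted 0.854). It was -0.05 in locked males (exact permutation p = 0.58, adjusted 0.773) and 0.43 in running males (exact permutation p = 0.0338, adjusted 0.135). On log2 CPM without TMM the last became 0.51, with an adjusted permutation p of 0.0117. The limma fit over all mice called Elavl1 higher in labelled running males (log2 fold change 0.44, standard error 0.11, adjusted p = 0.0242), beside 2.63% of all genes called in that comparison. Without running control males 10 and 13 it was 0.19 (adjusted p = 0.473). These controls had the lowest Elavl1 levels of all mice and were left out after the data were seen. Leaving them out lowers the difference by construction, so that fit cannot test whether the label difference holds. The call was also lost without running control male 10 alone (0.34, adjusted p = 0.132), 13 alone (0.33, adjusted p = 0.0995) or 25 alone (0.41, adjusted p = 0.0619), and without running labelled male 1 (0.42, adjusted p just over the threshold) or 21 (0.41, adjusted p = 0.0671).

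By group mean, Elavl1 rose in the order control locked females (44.7 ± 3.10 CPM, SD, n = 7), control running males (47.0 ± 13.8), labelled locked females (48.6 ± 7.64), labelled locked males (51.0 ± 4.41), control locked males (53.2 ± 7.89), control running females (53.8 ± 4.65), labelled running females (54.2 ± 4.38) and labelled running males (61.1 ± 6.34). Each of the first 6 steps, of 0.4 to 2.4 CPM, was smaller than the SD of either neighbour. The last step, of 6.9 CPM, was larger than the SD of both. The 5 genes whose levels followed Elavl1 most closely over the 56 mice, after removal of the 8 group means and among 6251 genes of at least 10 CPM, were Ube2j2 (r = 0.71, rho = 0.64), Igf2r (r = 0.68, rho = 0.53), Banf1 (r = 0.67, rho = 0.56), Esyt2 (r = 0.66, rho = 0.54) and Smarcc2 (r = 0.65, rho = 0.51). Without the 2 mice farthest from the Elavl1 median, these r were between 0.54 and 0.63. They were chosen for their r and have no test.

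Over the 8 groups, 3 of the 9 genes differed with the HuRm-/- label, beside 11.8% of all tested genes (1695 of 14321). Zfp36 and Hnrnpd rose and Tia1 fell. The called genes of the whole table were split into 634 higher and 1061 lower, that is 37.4% higher, which became 48.1% higher with upper-quartile normalization. The median log2 fold change of the 9 genes was 0.07, and that of all genes 0.014.

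Zfp36, which encodes tristetraprolin (chromosome 7, 28376784 to 28380253, minus strand), showed the largest label difference of the 9. It had few reads, from 20 to 101 counts per mouse, so that counting error alone was about 13.9% at the median. In locked females it ran from 2.58 to 4.15 CPM in controls (median 2.97) and from 3.18 to 8.23 CPM in labelled mice (median 4.54). In running males it ran from 3.43 to 5.32 CPM in controls (median 4.21) and from 4.56 to 8.95 CPM in labelled mice (median 5.83). All 7 labelled mice of both of these groups lay above the median of their controls, and the highest 4 and 5 of them lay above every control.

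In running females, Zfp36 ran from 2.62 to 6.80 CPM in controls (median 4.06) and from 3.77 to 6.98 CPM in labelled mice (median 4.76). In locked males it ran from 3.11 to 4.75 CPM in controls (median 4.35) and from 3.46 to 5.49 CPM in labelled mice (median 4.69). The groups overlapped in these mice over most of their range. Over all mice Zfp36 was at 127% of controls (95% confidence interval 112 to 143%) in labelled mice (log2 fold change 0.34, standard error 0.090, limma adjusted p = 0.00726). The difference was above 0 in all 4 strata (0.07 to 0.48), and 22 of 28 labelled mice lay above the median of their controls. It kept its call without any 1 of the 56 mice (largest adjusted p = 0.0166).

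Its relatives in the family, which bind the same nonamer, did not pass the threshold over all mice. Zfp36l2 (chromosome 17, 84183931 to 84187947, minus strand) had a difference of 0.22 on the log2 scale with the label (standard error 0.082, limma adjusted p = 0.0764), and it passed without running labelled female 3 (adjusted p = 0.0457), locked control male 31 (0.0384), running control male 27 (0.0321) or running labelled male 1 (0.0418). Zfp36l1 (chromosome 12, 80107754 to 80113013, minus strand) had one of 0.07 (standard error 0.045, adjusted p = 0.334). In running males Zfp36l2 ran from 3.30 to 7.38 CPM in controls (median 4.38) and from 4.72 to 7.80 CPM in labelled mice (median 7.42). All 7 labelled mice lay above the control median there, and 4 lay above every control. This was the other member called in running males (log2 fold change 0.55, standard error 0.16, limma adjusted p = 0.046), and it lost its call in 12 of the fits that left out 1 mouse (adjusted p up to 0.13) and without running control males 10 and 13 (0.42, adjusted p = 0.317).

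**Figure D2:**
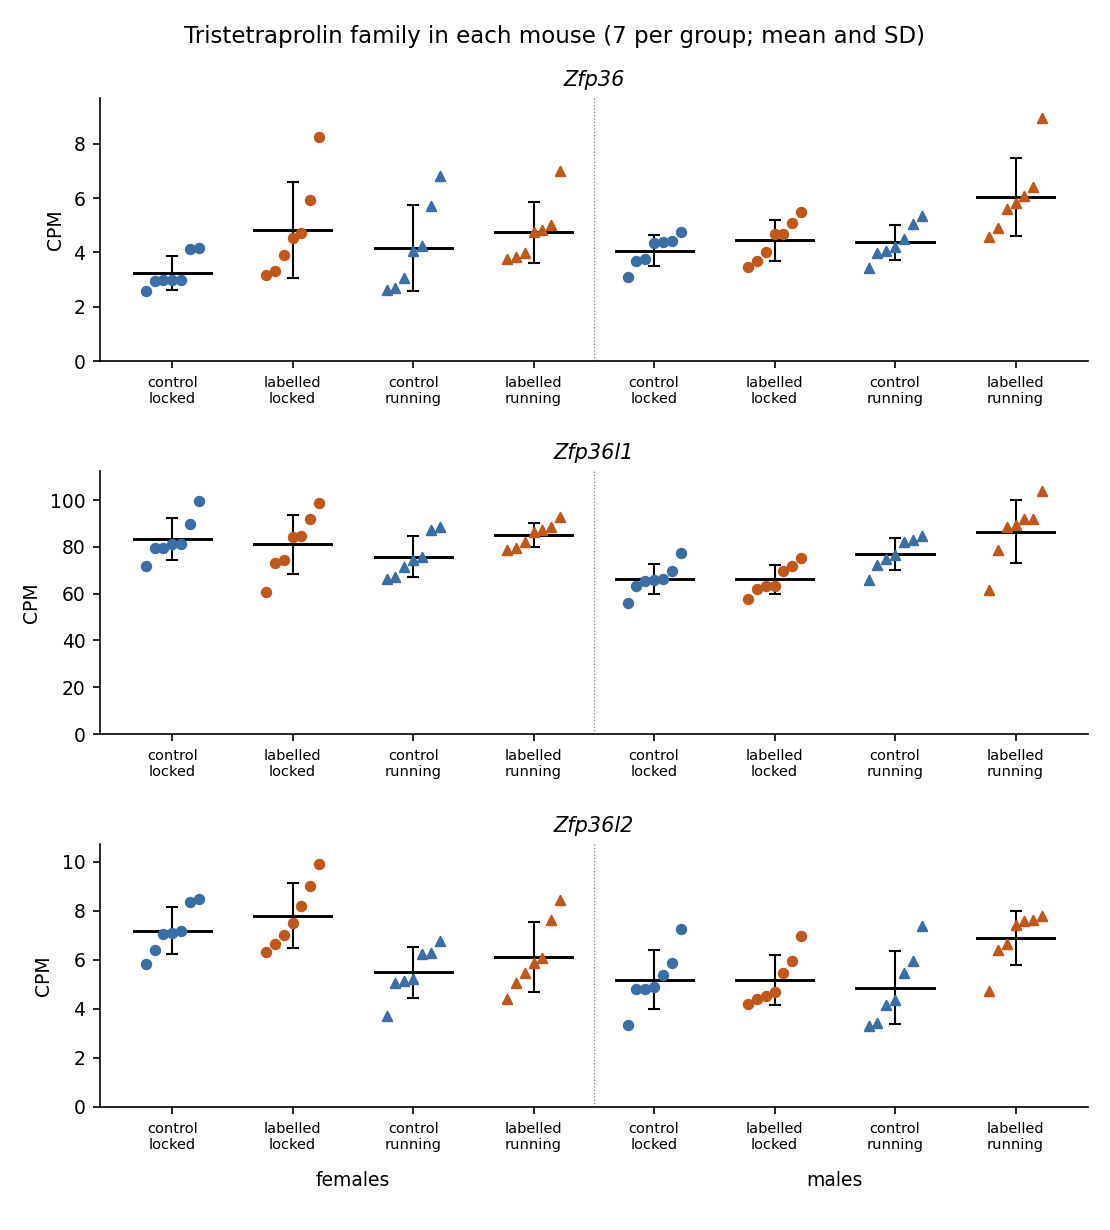
Normalised levels of Zfp36, Zfp36l1 and Zfp36l2 in each mouse in CPM (y axes, from 0) in the 8 groups (x axis), with colours and symbols for label and wheel as drawn for Elavl1 and the mean and SD of 7 mice in black. Zfp36 reaches its highest value, 8.95 CPM, in a labelled running male, Zfp36l1 is lowest in both groups of locked males, and Zfp36l2 is highest in the locked females.

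Immediate early genes are a class with fast and brief induction in which Zfp36 is often counted. Of 14 such genes, 2 were called higher with the label and 0 lower, a share near the 11.8% of all genes. These were Fos (log2 fold change 0.71, adjusted p = 0.00524) and Egr1 (0.50, adjusted p = 0.0172). Their summed level ran from 263 to 355 CPM in running control males and from 323 to 506 CPM in running labelled males, and from 269 to 369 CPM in locked control females and from 220 to 412 CPM in locked labelled females. Within groups, Zfp36 followed the mean of these genes over the 56 mice (Pearson r = 0.53, permutation p = 1e-04, adjusted 0.0099 over 99 relations of 9 genes with 11 marker lists, and Spearman rho = 0.51, permutation p = 0.00018, adjusted 0.0178), and r was 0.47 without the 2 most distant mice. Of the remaining relations, Zfp36l1 with the adipocyte markers passed on both measures (r = 0.42, permutation p = 0.00185, adjusted 0.0468, rho = 0.46, permutation p = 0.00096, adjusted 0.0475, and r = 0.41 without 2 mice). Tia1 with the immediate early genes (r = -0.44, permutation p = 0.00162, adjusted 0.0468, rho = -0.42, adjusted 0.0616) and Zfp36l1 with the fast fibre markers (r = -0.47, permutation p = 0.00189, adjusted 0.0468, rho = -0.41, adjusted 0.0744) passed by Pearson r alone, each with r = -0.42 without 2 mice. The part of these genes in the label difference was not tested.

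Hnrnpd, which encodes AUF1 (chromosome 5, 99955935 to 99978938, minus strand), was also higher in labelled mice. The difference was small, with a difference of 0.12 on the log2 scale (standard error 0.037, limma adjusted p = 0.0293), and labelled mice were at 108% of controls. In running males it ran from 34.5 to 47.0 CPM in controls (median 40.3) and from 41.7 to 49.9 CPM in labelled mice (median 46.6). In locked females it ran from 32.3 to 37.9 CPM in controls (median 34.2) and from 32.1 to 49.5 CPM in labelled mice (median 39.7). In running males 6 of 7 controls lay below every labelled mouse, while in locked males (controls 35.3 to 47.6 CPM, labelled 39.5 to 44.6 CPM) the labelled mice lay within the range of the controls. The difference was above 0 in all 4 strata (0.01 to 0.21), with 22 of 28 labelled mice above the median of their controls. Without running labelled female 21 the adjusted p was 0.0521, and without running control males 10 and 13 it was 0.0668.

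Tia1, which encodes the translational repressor TIA-1 (chromosome 6, 86404219 to 86433405, plus strand), was the 1 of the 9 genes called lower with the label. Labelled mice were at 89.0% of controls (log2 fold change -0.17, standard error 0.054, limma adjusted p = 0.0293), and 22 of 28 lay below the median of their controls. In running females Tia1 ran from 35.6 to 46.3 CPM in controls (median 41.5) and from 29 to 41.1 CPM in labelled mice (median 33.6), 5 of which lay below every control. In locked males it ran from 30.7 to 45.7 CPM in controls (median 39.7) and from 27.9 to 40.6 CPM in labelled mice (median 30.5), 4 of which lay below every control. Locked females overlapped more (controls 22.7 to 40.4 CPM, labelled 22 to 32.2 CPM), and in running males the difference was 0.05, with controls from 26.5 to 34.1 CPM and labelled mice from 24.6 to 41.0 CPM. The call was lost without locked control female 18 (adjusted p = 0.0564), locked labelled female 13 (0.0535) or running labelled male 1 (0.0501), and with upper-quartile normalization (log2 fold change -0.15, adjusted p = 0.055) or with hepatocyte and adipocyte (-0.16, 0.0555) or leukocyte and endothelial markers (-0.14, 0.0846) as covariates.

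Averaged over all mice, Tial1, Khsrp and Pabpc1 had label differences near 0. Tial1, the paralog of Tia1, had a log2 fold change of 0.01 (95% confidence interval -0.08 to 0.09, limma adjusted p = 0.959). Khsrp had one of -0.06 (-0.14 to 0.02, adjusted p = 0.403) and Pabpc1 one of -0.02 (-0.10 to 0.06, adjusted p = 0.808). Over these 3 genes the intervals of this average span 90.8% to 107% of controls. Within the strata the differences lay on both sides of 0, and none was called. They ran from -0.10 to 0.14 for Tial1, from -0.22 to 0.18 for Khsrp and from -0.17 to 0.08 for Pabpc1. In locked females, Khsrp ran from 19.1 to 22.9 CPM in controls (median 21.3) and from 16.9 to 22.4 CPM in labelled mice (median 17.7). There 6 of 7 labelled mice lay below every control, with labelled female 13 apart at 22.4 CPM, and the difference of -0.22 did not pass the test over all genes (standard error 0.083, limma adjusted p = 0.197).

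**Figure D3:**
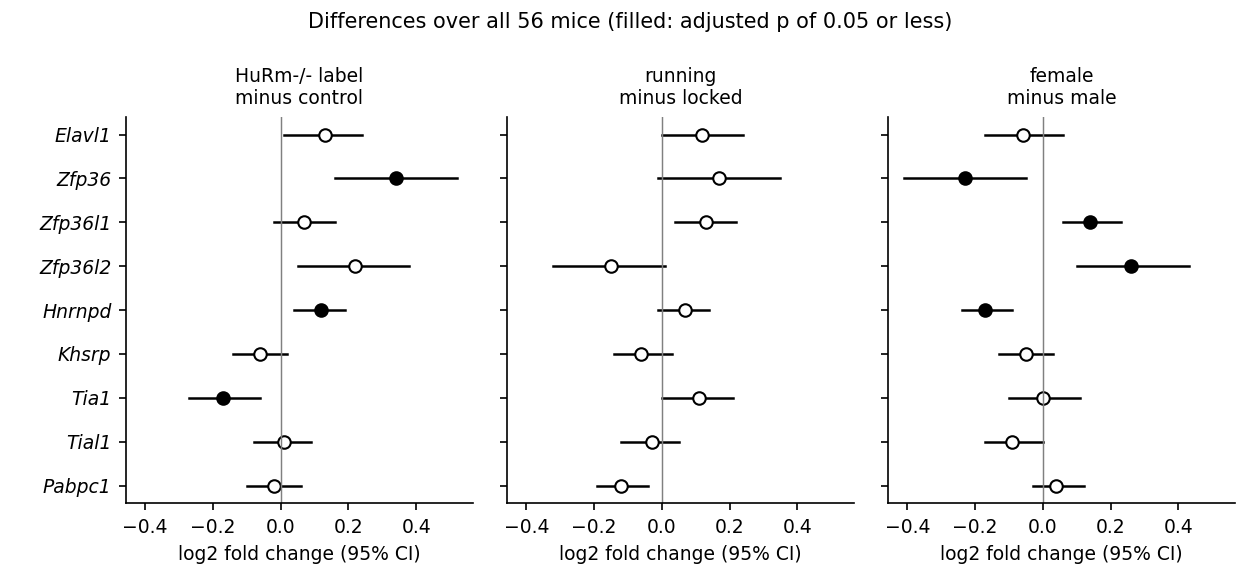
Log2 fold changes (x axes) of the 9 genes (y axis) for the HuRm-/- label, the running wheel and sex over all 56 mice, with 95% confidence intervals as lines and filled points for a limma adjusted p of 0.05 or less. With the label, Zfp36 and Hnrnpd lie to the right of 0 and Tia1 to the left, with the wheel no point is filled, and between the sexes 4 points are filled, 2 on either side.

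Within the 4 strata taken singly, few of the 9 genes were called with the label. In locked females limma called 0 of the 9 (5 at an unadjusted p under 0.05, and 0 by edgeR's quasi-likelihood test and by DESeq2), beside 0.384% of all genes. In running females it called 0 (2 unadjusted, 0 by both other tools), beside 0% of all genes (0 by limma, 0 by quasi-likelihood and 5 by DESeq2). In locked males it called 0 (1 unadjusted, 0 by both other tools), beside 1.15%. In running males it called 2, Elavl1 and Zfp36l2 (5 unadjusted), beside 2.63% of all genes (376 of 14321). There quasi-likelihood called 0 of the 9, beside 280 of all genes, and DESeq2 called 1 (Elavl1), beside 353. The difference of the label effect between the wheels was called for 0 of the 9 genes (2 unadjusted, 0 by both other tools), beside 0.00698% of all genes, and that between the sexes for 0 of the 9 (1 unadjusted, 0 by both other tools), beside 0.00698%. Each of these differences was averaged over the remaining factor. Whether the label effect was larger in running males than in the other strata was not tested.

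Slow fibre markers moved with the label and with sex. All 8 of these markers (Myh7, Myl2, Tnnt1 and others) were called higher in labelled mice, with a median log2 fold change of 0.50. Their summed level ran from 1300 to 1890 CPM in locked control females and from 1870 to 3170 CPM in locked labelled females, and from 1570 to 2360 CPM and 2000 to 2860 CPM in running females. In locked males it ran from 869 to 1280 CPM in controls and from 917 to 2490 CPM in labelled mice, and in running males from 959 to 1610 CPM and from 1190 to 2350 CPM. With the mean of these markers as a covariate, which was added after they were seen to move, 0 of the 9 genes were called with the label by limma: Zfp36 was at 0.25 (adjusted p = 0.349), Hnrnpd at 0.09 (0.448) and Tia1 at -0.09 (0.645). Without it Zfp36 was at 0.34. As the covariate itself moved with the label, a smaller difference and a loss of precision cannot be told apart. The share of all genes called with this covariate was not counted. Of 7 Schwann cell markers 3 were called higher with the label, and their part was not tested. Of the markers of fast fibres, endothelial cells, leukocytes, fibroblasts, hepatocytes, satellite cells and erythroid cells limma called 0 with the label, and of 10 adipocyte markers 1 (Car3).

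With the running wheel over all 56 mice, limma called 0 of the 9 genes, beside 5.96% of all tested genes. At an unadjusted p under 0.05 there were 3, and edgeR's quasi-likelihood test, DESeq2 and limma-trend each called 1 of them, Pabpc1. Pabpc1 (chromosome 15, 36595661 to 36609668, minus strand) was at 92.2% of locked-wheel mice in runners (log2 fold change -0.12, standard error 0.038, limma adjusted p = 0.0516), with 21 of 28 runners below the median of their locked-wheel group and a difference below 0 in all 4 strata (-0.24 to -0.04). It passed the threshold in 22 of the 56 fits that left out 1 mouse (adjusted p 0.0149 to 0.076 over the 56). Zfp36l1 had a difference of 0.13 on the log2 scale (standard error 0.045, adjusted p = 0.0604), passing without locked control female 15, running control female 28, locked labelled female 17 or 19, running control male 5 or running labelled male 1 (adjusted p from 0.016 to 0.0482). Elavl1 had one of 0.12 (standard error 0.058, adjusted p = 0.229), and 25 of 28 runners lay above the median of their locked-wheel group. By stratum the Elavl1 difference was 0.27 and 0.17 in control and labelled females and -0.22 and 0.26 in control and labelled males. In control males, where it was below 0 (limma adjusted p = 0.336), 4 of 7 runners lay above the locked median. Elavl1 was called in 0 of the 56 fits that left out 1 mouse (smallest limma adjusted p = 0.0853). Without running control males 10 and 13 the Elavl1 difference was 0.18 (limma adjusted p = 0.00792). These runners had the lowest Elavl1 levels of all mice and were left out after the data were seen. Leaving them out raises the difference by construction, so that fit cannot test whether Elavl1 rises with the wheel.

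Within strata, 3 of 36 comparisons with the wheel were called. In control females, Pabpc1 ran from 150 to 205 CPM with locked wheels (median 188) and from 139 to 170 CPM with running wheels (median 160). All 7 runners lay below the locked median and 3 below every locked mouse (log2 fold change -0.24, standard error 0.076, limma adjusted p = 0.041). Tia1 ran from 22.7 to 40.4 CPM with locked wheels (median 31.4) and from 35.6 to 46.3 CPM with running wheels (median 41.5) in the same mice. All 7 runners lay above the locked median and 4 above every locked mouse (log2 fold change 0.37, standard error 0.11, adjusted p = 0.0238). These 2 were the members called in control females, beside 8.74% of all genes. The Tia1 call was lost without locked mouse 12 (adjusted p = 0.0573) or 20 (0.0757) or running mouse 27 (0.0573) or 9 (0.0516). The Pabpc1 call was lost without locked mouse 12 (0.0788), 15 (0.0686), 16 (0.0759) or 20 (0.0955) or running mouse 26 (0.0721), 27 (0.0991) or 28 (0.0883).

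Each of the 9 genes was looked at in 8 comparisons of 7 against 7 mice with the label or wheel. The groups did not overlap in 1 case, that of Elavl1 with the wheel in control females. In the same comparison 2.21% of all tested genes (317 of 14321) did not overlap, and in the other comparisons 0.237% to 0.999%. Elavl1 ran from 38.9 to 48.2 CPM with locked and from 49.3 to 61.3 CPM with running wheels. All 7 runners lay above all 7 locked mice, yet the fit with 1 shared spread did not call it (log2 fold change 0.27, standard error 0.12, limma adjusted p = 0.151).

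In labelled females, limma called 0 of the 9 genes with the wheel (2 unadjusted), beside 3.85% of all genes, where quasi-likelihood and DESeq2 each called Tia1. Tia1 ran there from 22 to 32.2 CPM with locked and from 29 to 41.1 CPM with running wheels, and 5 of 7 runners lay above every locked mouse (log2 fold change 0.35, standard error 0.11, limma adjusted p = 0.0517). Zfp36l2 was lower in runners of both groups of females without passing the test, by 0.44 in controls (limma adjusted p = 0.0968) and by 0.39 in labelled mice (adjusted p = 0.14). It ran from 5.81 to 8.46 CPM in locked and from 3.72 to 6.77 CPM in running control females, all 7 runners lying below the locked median.

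In control males, Khsrp was the member called with the wheel, beside 3.24% of all genes. KSRP, its protein, brings decay enzymes to AU-rich mRNAs and also helps to process microRNA precursors. Khsrp (chromosome 17, 57021051 to 57031522, minus strand) ran from 19.9 to 25.2 CPM with locked wheels (median 21.5) and from 16.2 to 20.6 CPM with running wheels (median 18.1). All 7 runners lay below the locked median and 5 below every locked mouse (log2 fold change -0.29, standard error 0.080, limma adjusted p = 0.0274). The call was lost without locked mouse 18 (adjusted p = 0.0623), 20 (0.0959) or 31 (0.0538) or running mouse 10 (0.0665), 13 (0.0705) or 25 (0.0525), and with leukocyte and endothelial markers as covariates (-0.27, adjusted p = 0.113) or without running mice 10 and 13 together (-0.25, adjusted p = 0.178).

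In labelled males, limma called 0 of the 9 genes with the wheel (4 unadjusted), beside 0.0419% of all genes, and quasi-likelihood and DESeq2 each called Zfp36l1. Zfp36l1 ran from 57.6 to 75.2 CPM with locked wheels (median 63.5) and from 61.4 to 104 CPM with running wheels (median 89.3). The levels of 6 of 7 runners lay above every locked mouse, and running mouse 1 was low at 61.4 CPM (log2 fold change 0.38, standard error 0.089, limma adjusted p = 0.0909). Zfp36 had a log2 fold change of 0.45 (adjusted p = 0.252), with 5 of 7 runners above every locked mouse, and Zfp36l2 one of 0.39 (adjusted p = 0.311), with 4 of 7.

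**Figure D4:**
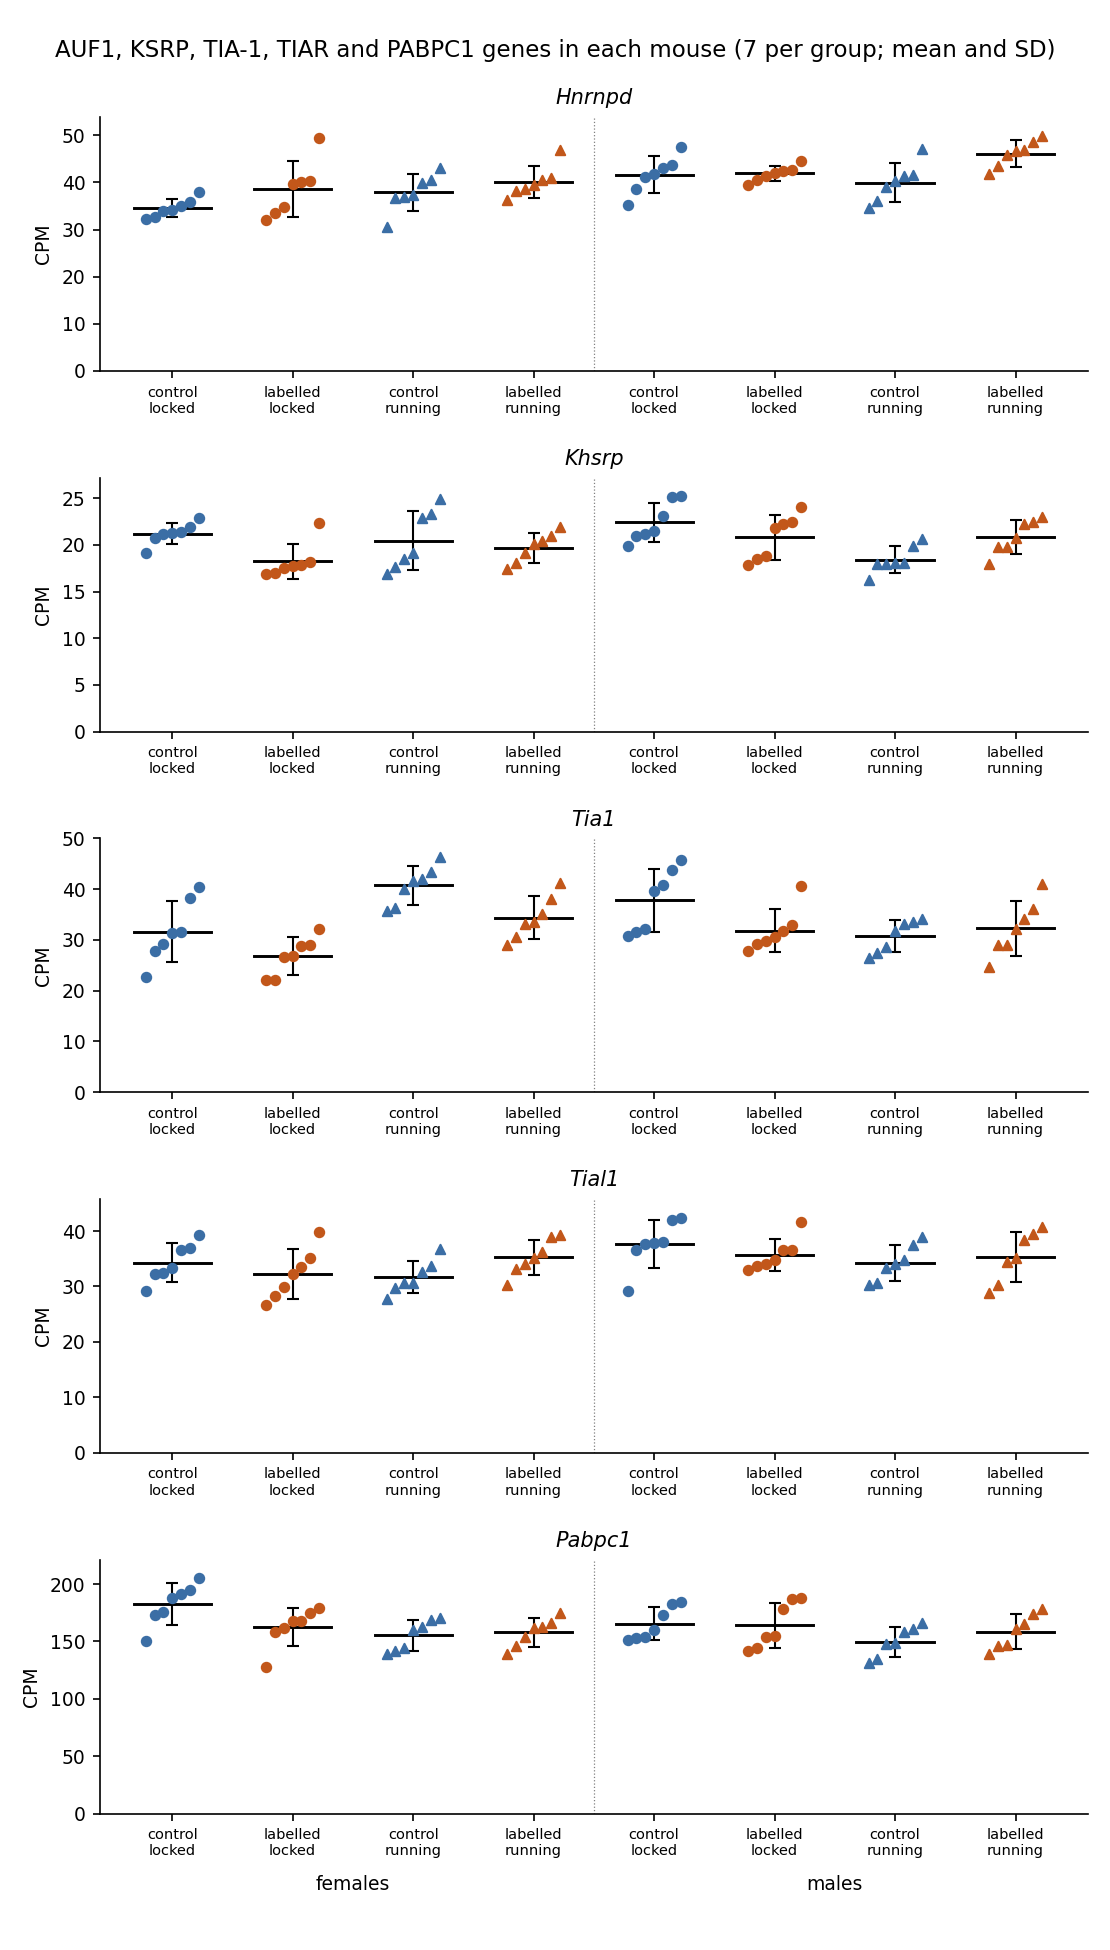
Normalised levels of Hnrnpd, Khsrp, Tia1, Tial1 and Pabpc1 in each mouse in CPM (y axes, from 0) in the 8 groups (x axis), with colours and symbols for label and wheel as drawn for Elavl1 and the mean and SD of 7 mice in black. Tia1 is higher in running than in locked females and lower in running than in locked control males, and Pabpc1 is highest in locked control females (mean 183 CPM).

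The effect of the wheel differed between the sexes for 3 of the 9 genes, beside 13.7% of all tested genes. The difference itself was tested, as the wheel effect in females minus that in males, and the same 3 genes were called by edgeR's quasi-likelihood test and by DESeq2. For Tia1 it was 0.50 (standard error 0.11, limma adjusted p = 0.000817). Its wheel effects were 0.37 and 0.35 in control and labelled females and -0.29 and 0.00 in control and labelled males. For Zfp36l2 it was -0.52 (standard error 0.16, adjusted p = 0.026), from wheel effects of -0.44 and -0.39 in females and -0.17 and 0.39 in males. For Zfp36l1 it was -0.33 (standard error 0.089, adjusted p = 0.00886), from -0.14 and 0.08 in females and 0.22 and 0.38 in males. The Zfp36l2 call was lost without running control female 28 (-0.46, adjusted p = 0.0551), and the other 2 were kept without any 1 mouse.

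Markers of other cells moved in the same mice. With the wheel in control females 6 of 10 leukocyte, 8 of 8 fibroblast, 4 of 10 adipocyte and 4 of 6 erythroid markers were called lower, and in the wheel by sex difference 8, 8, 4 and 4 of them were called, with a median of -0.88 for leukocyte and -0.83 for fibroblast markers. The part of the fibroblast and erythroid markers was not tested. The 10 leukocyte markers summed to between 126 and 270 CPM in locked and between 77.7 and 169 CPM in running control females, and to between 50.3 and 105 CPM in locked and between 58.8 and 157 CPM in running control males. With the means of the leukocyte and endothelial markers as covariates, the wheel by sex difference was called for Tia1 but not for Zfp36l1 (-0.21, adjusted p = 0.331) or Zfp36l2 (-0.35, adjusted p = 0.413), and neither Tia1 (0.25, adjusted p = 0.343) nor Pabpc1 (-0.20, adjusted p = 0.267) was called with the wheel in control females. With the hepatocyte and adipocyte markers as covariates, Tia1 was again the 1 member called in the wheel by sex difference (Zfp36l1 -0.19, adjusted p = 0.224, and Zfp36l2 -0.49, adjusted p = 0.107), and in control females the wheel called neither Tia1 (0.28, adjusted p = 0.294) nor Pabpc1 (-0.17, adjusted p = 0.398). Leukocyte and adipocyte markers moved in the same comparisons, so a smaller difference and a loss of precision cannot be told apart. Of 9 hepatocyte markers tested, 4 were called lower in runners (Alb, Serpina1a, Apoc3 and Apoa1), and their summed level ran from 2.63 to 3160 CPM over all mice.

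**Figure D5:**
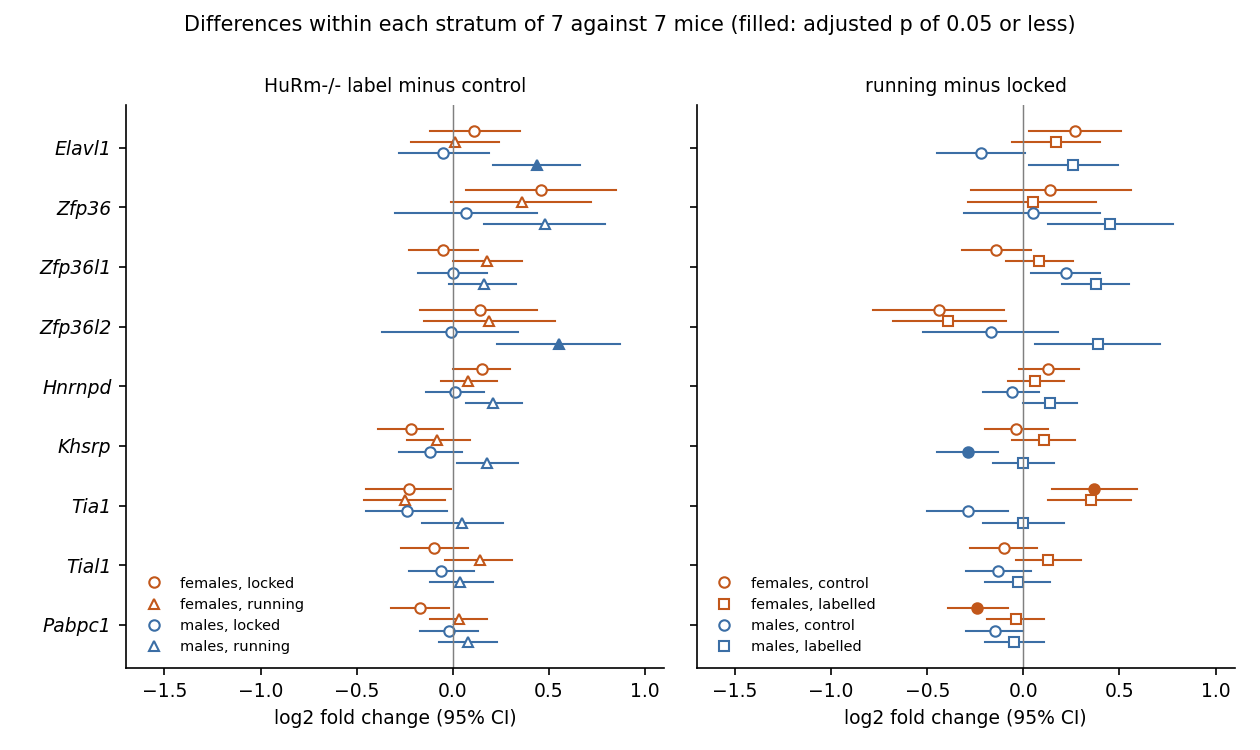
Log2 fold changes (x axes) with 95% confidence intervals of the 9 genes (y axis) within each stratum of 7 against 7 mice, for the HuRm-/- label on the left and the running wheel on the right, with filled symbols for a limma adjusted p of 0.05 or less. With the label only Elavl1 and Zfp36l2 in running males are filled, and with the wheel the females and the control males lie on opposite sides of 0 for Tia1.

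Between the sexes, 4 of the 9 genes were called, beside 33% of all tested genes. Zfp36l2 was higher in females (log2 fold change 0.26, standard error 0.082, limma adjusted p = 0.0103), as was Zfp36l1 (0.14, standard error 0.045, adjusted p = 0.00858). Hnrnpd was lower in females (-0.17, standard error 0.037, adjusted p = 0.000222), and so was Zfp36 (-0.23, standard error 0.090, adjusted p = 0.0438). The 3 genes of the tristetraprolin family thus did not move alike between the sexes. The Zfp36 call was lost in 28 of the 56 fits that left out 1 mouse (adjusted p up to 0.0853) and by quasi-likelihood (-0.17, adjusted p = 0.163) and DESeq2 (-0.17, adjusted p = 0.166).

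In locked control mice Zfp36l1 ran from 71.8 to 99.8 CPM in females (median 81.1) and from 56.1 to 77.2 CPM in males (median 65.8). Hnrnpd ran from 32.3 to 37.9 CPM in females (median 34.2) and from 35.3 to 47.6 CPM in males (median 41.9) in the same groups. Zfp36l2 ran there from 5.81 to 8.46 CPM in females (median 7.11) and from 3.34 to 7.24 CPM in males (median 4.89). Markers of other cells were also higher in females: 7 of 10 adipocyte markers (with 1 lower), 7 of 10 leukocyte markers, 8 of 8 fibroblast markers and 8 of 8 slow fibre markers were called. The adipocyte markers summed to between 3170 and 6310 CPM in females and between 1640 and 4670 CPM in males. The most abundant genes of the list carry such a sum, so it is not a measure of fat content. In locked males the median sum was 3720 CPM in labelled mice and 2240 CPM in controls, but the mean log2 CPM was 3.99 and 4.13. By group, that mean ran from 4.66 to 5.53 in females and from 3.99 to 4.33 in males. With the hepatocyte and adipocyte markers as covariates 0 of the 9 genes were called between the sexes by limma, with Zfp36l1 at -0.02 (adjusted p = 0.931), Zfp36l2 at 0.17 (0.556), Hnrnpd at -0.10 (0.381) and Zfp36 at -0.35 (0.153). Zfp36l1 and Zfp36l2 were also not called with the leukocyte and endothelial markers (0.10, adjusted p = 0.152, and 0.20, adjusted p = 0.117) or the slow fibre markers as covariates (0.13, adjusted p = 0.142, and 0.22, adjusted p = 0.171). Without covariates Zfp36 was at -0.23, nearer to 0 than with them. Since adipocyte, leukocyte and slow fibre markers differed between the sexes themselves, a smaller difference and a loss of precision cannot be told apart. The share of all genes called with these covariates was not counted.

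Among themselves the 9 genes varied mostly apart. After removal of the group means, the strongest of the 36 pairwise relations over 56 mice was that of Zfp36 and Tial1 (Pearson r = -0.39, permutation p = 0.00736, adjusted 0.17, Spearman rho = -0.32, permutation p = 0.0263, adjusted 0.404), and r was -0.31 without the 2 most distant mice. None of the 36 passed an adjusted p of 0.05. Zfp36l1 and Zfp36l2 had r = 0.31 (permutation p = 0.0189, adjusted 0.17), rho = 0.28 (permutation p = 0.044, adjusted 0.404) and r = 0.30 without the 2 most distant mice. The spread within groups was 23.4% for Zfp36 and 20.1% for Zfp36l2, and between 8.67% and 13.9% for the other 7.

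Other genes of RNA binding and decay are given by list, beside 11.8% of all genes called with the label (634 higher and 1061 lower). Of 38 other proteins that bind AU-rich or 3′ end sequences, 0 were called higher and 3 lower with the label: Fxr1 (log2 fold change -0.13, limma adjusted p = 0.0121), Dhx36 (-0.14, 0.0185) and Syncrip (-0.11, 0.0328). Of the 3 other Hu genes (Elavl2, Elavl3 and Elavl4), limma called 0 with label, wheel or sex, also at an unadjusted p under 0.05. Of 14 partners of poly(A) binding protein, 4 were called lower with the label, 0 higher, and 10 did not pass. The 4 were Paip1, which bridges PABPC1 and the cap-binding complex (-0.30, adjusted p = 2.81e-05), the scaffolds Eif4g3 (-0.32, 0.000654) and Eif4g1 (-0.16, 0.00532), and Pabpc4, a paralog of Pabpc1 (-0.16, 0.0268). The median of the 14 was -0.06, beside 0.014 over all genes.

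The enzymes of mRNA decay were called with the label in shares near the 11.8% of all genes. Of 18 deadenylase genes 2 were called higher, Cnot11 (0.24, limma adjusted p = 0.00306) and Cnot3 (0.17, 0.0391), both subunits of the CCR4-NOT complex that tristetraprolin recruits. Of 16 decapping genes Lsm7 was called higher (0.22, 0.0366) and Lsm4 lower (-0.20, 0.00262). Of 16 exosome genes tested, Dis3, its catalytic subunit, was called higher (0.54, adjusted p = 5.23e-05), as was Exosc8 (0.21, 0.0352). Of 21 tested kinases, transport partners and ligands of HuR, 1 was called higher and 5 lower. The 4 with the smallest p were Tnpo2, a transportin that imports HuR into the nucleus (-0.38, adjusted p = 0.000701), Anp32a (-0.22, 0.0015) and Set (-0.14, 0.0032), which are protein ligands of HuR, and the kinase p38 (Mapk14, -0.17, 0.00207).

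With the wheel, 5 of the 38 other binding proteins were called, 4 higher and 1 lower, beside 5.96% of all genes. These include G3bp1 (0.17, limma adjusted p = 0.00483), Igf2bp2 (0.45, 0.018) and, lower, Ncl (-0.11, 0.0146). Of the 14 partners of poly(A) binding protein, Paip2b, which displaces PABPC1 from the tail, was called lower (-0.22, 0.0247). Of the deadenylases limma called 0 of 18 with the wheel (6 unadjusted), of the decapping genes 0 of 16 (4 unadjusted), of the HuR kinases and partners 0 of 21 (7 unadjusted), and of the exosome genes 1 of 16 (Hbs1l, 0.13, adjusted p = 0.0304). Between the sexes, beside 33% of all genes called, 20 of the 38 binding proteins (8 higher in females, 12 lower), 7 of 18 deadenylase genes, a share near that of all genes, and 12 of 21 HuR partners were called. Prkcd, a kinase of HuR, was the first of these by p, at 52.0% of males in females (-0.94, adjusted p = 3.61e-15).

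Of 40 measured transcripts known for AU-rich elements, 6 were called higher and 4 lower with the label, beside 11.8% of all genes, and their median log2 fold change was 0.10. Mcl1, whose protein blocks apoptosis, was higher (0.25, limma adjusted p = 1.05e-05), and its relative Bcl2 was lower (-0.37, 0.000893). Ppargc1a, the coactivator of mitochondrial biogenesis, was lower with the label (-0.21, 0.00153) and higher with the wheel (0.15, 0.0419), and Pim1 was lower with the label (-0.45, 0.00234). With the wheel 3 of the 40 were called higher and 1 lower, beside 5.96% of all genes, among them Dusp6 (0.43, 0.000526), Vegfa (0.20, 0.012) and, lower, Klf6 (-0.19, 0.0209). The nonamer was found in the 3′ UTR of 8 of these 40 genes (20.0%), beside 8.22% of the tested genes with an annotated 3′ UTR. The list was chosen for known AU-rich elements and not matched for length, so the higher share is not a result of these data.

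All tested genes were also grouped by the number of nonamers in the 3′ UTR. With the label, 12.1% of the 11806 genes without a nonamer were called, 10.7% of the 830 with 1, 14.7% of the 143 with 2 and 10.6% of the 85 with 3 or more. The median log2 fold changes were 0.009, 0.012, 0.038 and 0.001 in that order. The groups differed in length, with a median 3′ UTR of 1134.5 bases without a nonamer and 2963 bases with 3 or more. With the wheel, the medians were 0.004, 0.029, 0.018 and 0.031, and 5.79%, 6.27%, 4.20% and 9.41% of the genes were called. These are descriptions without a test.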

How the data were processed

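Gastrocnemius RNA of 56 mice was counted per gene. The authors deposited 1 table of raw counts per gene, whole numbers without normalization, for 15539 genes, of which 15503 were matched to a symbol. The smallest gene total over the 56 mice was 168. The submitters' processing notes name GRCm38, mm10, R 4.0.3 and edgeR 3.38.4. The aligner, the counter and its strand setting are not given in the sources used here, so reads of overlapping genes such as Elavl1 and Ccl25 cannot be told apart.

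Groups came from the sample labels. The 8 group means were fitted together over all 56 mice after filterByExpr and TMM in edgeR 4.0.16, with voom and limma 3.58.1 in R 4.3.3, and a gene was called at 0.05 or less after Benjamini-Hochberg adjustment over 14321 genes, separately in 14 comparisons. Label, wheel and sex were averaged over the other factors, and all p-values are two-sided. CPM of single genes are TMM-normalised, summed levels of gene lists are CPM without TMM, and log2 CPM used TMM and a prior count of 2. Comparisons that share groups are not independent. Within strata Elavl1 was also tested by exact permutation, and correlations by 1e+05 permutations of mice within groups. On simulated counts for the label comparison with 200 changed genes among 14321, the fit recovered 50.0% of genes changed 1.25-fold, 68.0% of those changed 1.5-fold, 86.0% of those changed 2-fold and 100.0% of those changed 3-fold, with 7 false calls among 159.

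The 9 genes and all lists were chosen with earlier results of these data known. All 9 are named in every comparison. Of each list, the counts and at most the 4 called genes with the smallest p are given per comparison (some called list genes are not reported here), and the 5 genes most like Elavl1 are those of highest r. Lists of markers averaged log2 CPM. Alternatives were DESeq2 1.42.0, its size factors, the quasi-likelihood test of edgeR, limma-trend, upper-quartile scaling, quality weights, filters, ribosomal genes left out, fits of the compared mice, marker covariates, a replicate block and each mouse left out. Mice of different sexes share some numbers. Over the 19 such pairs with the same wheel setting, the deviations from group means correlated between -0.20 and 0.46, and 8 were over 0.1. The numbers were not taken to pair mice in the main fit, and these correlations do not settle whether they do. Shared numbers across wheel settings were not compared. 0 value columns were without a sample. Covariates of slow fibre markers or of 2 principal components, and leaving out running control males 10 and 13, were chosen after seeing the data.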

Additional observations from a re-analysis of the deposited data

Results flagged for a closer look

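Of the 72 sets of 7 mice (9 genes in 8 groups), 4 held a mouse whose distance from its nearest neighbour, as a share of the range of the group, was over the 95% critical value of Dixon, and chance alone gives about 1 in 20, that is 3.6 of 72. Zfp36l2 was low in running labelled male 1 (4.72 CPM, the next being 6.40), and Khsrp was high in locked labelled female 13 (22.4 CPM, the next being 18.2). Tial1 was low in locked control male 17 (29.2 CPM, the next being 36.6), and Pabpc1 was low in locked labelled female 34 (128 CPM, the next being 158). Each of the 4 is a different mouse.

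The effect of the running wheel differed between females and males by its own limma test for Tia1 (0.50, adjusted p = 0.000817), Zfp36l2 (-0.52, adjusted p = 0.026) and Zfp36l1 (-0.33, adjusted p = 0.00886). The Tia1 difference was positive and the other 2 negative, and the values within each stratum are given with the report of the wheel.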

How the results depend on the processing

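With the label, 3 genes were called over all mice, and the count was 0 with the slow fibre covariate, 0 in the 28 locked-wheel mice alone, 1 in the 28 running-wheel mice alone and 2 to 4 without any 1 mouse. Within label strata 2 were called, against 0 by quasi-likelihood, 1 by DESeq2, 1 by limma-trend, 4 with quality weights, 0 with hepatocyte and adipocyte or slow fibre covariates, 0 without running control males 10 and 13, and 0 to 3 without any 1 mouse. With the wheel 0 were called, and 1 with DESeq2 size factors, upper-quartile normalization, quasi-likelihood, DESeq2, limma-trend, quality weights, 10 counts in every mouse, ribosomal genes left out, hepatocyte and adipocyte covariates, those 2 males left out or the 28 controls alone, 2 with 2 principal components, and 0 to 1 without any 1 mouse. Within wheel strata 3 were called, against 5 by quasi-likelihood, 5 by DESeq2, 6 with quality weights, 1 with hepatocyte and adipocyte covariates, 0 with leukocyte and endothelial covariates, 5 with principal components, and 1 to 5 without any 1 mouse. Between the sexes 4 were called, against 0, 2 and 2 with the hepatocyte and adipocyte, leukocyte and endothelial, and slow fibre covariates, and 3 to 5 without any 1 mouse. Of the interactions 3 were called, against 1 with either of the first 2 covariate sets, and 2 to 3 without any 1 mouse. For the covariate fits the share of all genes called was not counted. Several marker lists moved with the compared factor, so these lower counts may reflect lost precision. The call with the wheel without running control males 10 and 13 was that of Elavl1. Those males had the lowest Elavl1 levels of all mice, so that call is not a test of the wheel. Nor is the loss of the Elavl1 call within label strata without them a test of the label.

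Some differences changed sign, none of them past the threshold after the change, and of these Zfp36l1 between the sexes (0.14) had been called. With the label these were Zfp36l1 (-0.0229 in locked mice), Khsrp (0.05228 in running mice), Tial1 (-0.007452 with quality weights, -0.001967 without the 2 males, -0.07592 in locked mice, -0.008492 to 0.02083 without any 1 mouse) and Pabpc1 (0.01641 with the slow fibre covariate, 0.0562 in running mice). With the wheel they were Khsrp (0.05265) and Tial1 (0.04922) in labelled mice. Between the sexes they were Elavl1 (0.01447 with leukocyte and endothelial covariates), Zfp36l1 (-0.01702 with hepatocyte and adipocyte covariates) and Tia1 (-0.0005704 by limma-trend, -0.003738 without the 2 males, -0.01284 to 0.02072 without any 1 mouse). The permutation difference of Elavl1 was 0.5052 without TMM in running males, and in running females -0.02326 to 0.04356 without any 1 mouse. The causes were not tested.

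The replicate block gave the same counts (3 with the label, 2 within label strata, 0 with the wheel, 3 within wheel strata, 4 between the sexes and 3 interactions), with a block correlation of 0.0222. Of the 19 pairs of a female and a male with a shared number and the same wheel setting, 4 correlated best with their own number. Counting error limits Zfp36 and Zfp36l2 most, at 13.9% and 12% at the median.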

Other observations

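The genes that ran most against Elavl1 over the 56 mice, after removal of the group means and among the same 6251 genes, were Mphosph8 (r = -0.81, rho = -0.71) and Rbm25 (r = -0.77, rho = -0.77). Without the 2 mice farthest from the Elavl1 median, r was -0.73 and -0.74. They were chosen after their values were seen and have no test.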
